A study of Mus musculus with 24 samples.

Results

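The early response of macrophages to lipopolysaccharide (LPS) was compared between a pair of RAW264.7 lines, as the 1 h response of a line labelled Tbc1d23 minus the 1 h response of a control line labelled CAT. The comparison takes every array of the series at 0 and 1 h, which are 12 of its 24 arrays. RAW264.7 is a mouse macrophage-like cell line, and the control construct encodes chloramphenicol acetyltransferase, a bacterial enzyme that mammalian cells lack. The 4 groups were CAT cells left unexposed (0 h), CAT cells after 1 h in 20 ng/ml LPS, Tbc1d23-labelled cells left unexposed and Tbc1d23-labelled cells after 1 h in 20 ng/ml LPS, with 3 arrays each. Both lines carried a construct and grew with G418, a drug that selects for it, so no group here holds cells without a construct. There was 1 line per construct, no label names the promoter of the constructs, and a difference between the lines cannot be told apart from a difference between these particular cultures. Nothing in the labels ties the replicates to cultures of their own, and every p-value therefore rests on the spread between arrays, which may be technical.

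LPS binds TLR4 on macrophages, which signals through adaptor proteins to NF-kB and the MAP kinases. Within the first hour these switch on immediate early genes, whose transcription needs no new protein, together with the first cytokines, chemokines and the feedback inhibitors that later end the signal. Interferon-stimulated genes usually follow, after interferon beta has been made. Tbc1d23 is one of the TBC-domain proteins, most of which act on Rab GTPases in membrane traffic, and the labels say that its construct overexpresses it.

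Levels are log2 of the scanner's processed signal minus the 75th percentile of the array, so a level of 0 is the signal of a fairly bright probe and 1 unit is 2-fold. Arrays were hybridised 4 to a slide, and each replicate number of a line is 1 slide that carries that line's arrays at all times, so a response was taken within a slide. The interaction is the log2 response of the Tbc1d23-labelled line minus that of the CAT line: below 0 the rise in the Tbc1d23-labelled line was smaller. It was tested with limma for 15032 genes with Benjamini-Hochberg adjustment over all of them, and an adjusted p under 0.05 is a call. Values after ± are limma standard errors with n = 3 slides per line.

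The share of probes well above background was 42.1 to 69.5% over the 12 arrays, and replicates correlated at r = 0.968 to 0.993 across genes, which are not independent replicates. The array of Tbc1d23-labelled cells at 0 h, replicate 1, stood apart with that highest share, against at most 57.5% on the other arrays. Of the Tbc1d23-labelled line, 2 slides came from another run of slide serial numbers than its remaining slide and the 3 CAT slides. Of 23 macrophage markers tested, 22 or 23 were well above background on all 3 arrays of every group. Their summed level, in multiples of the 75th percentile, was 2010 to 2450 in the CAT groups and 1250 to 1710 in the Tbc1d23-labelled groups, whose part in the results was not tested. The lists of lymphoid (T, NK and B), dendritic, granulocytic and erythroid, and fibroblast and epithelial markers summed to 0.108 to 3.42, and the osteoclast list to 5.97 to 13.6. Of all 55 markers of the 7 lists, 4 had a called interaction at 1 h: Cebpa (1.05), Fcgr3 (0.32), Ocstamp (-1.22) and Cd79b (-2.71). The share called over all genes tested was 5.84%, and the markers were not tested against it. A dimmer probe of Cebpa gave an interaction of the other sign, -0.47, that was not called (limma adjusted p = 0.48). That of Ocstamp gave -0.93, also not called (limma adjusted p = 0.057). Cd79b was not well above background on all 12 arrays.

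The transcript of Tbc1d23 itself did not separate the lines. Its level was 2.90, 3.37 and 3.29 in CAT cells at 0 h and 3.00, 3.15 and 3.51 in Tbc1d23-labelled cells at 0 h. At 1 h it was 3.38, 3.36 and 3.14 in CAT cells and 2.92, 3.02 and 3.48 in Tbc1d23-labelled cells. These groups overlap, and the difference between lines was 0.03 ± 0.21 at 0 h (limma adjusted p = 0.92) and -0.15 ± 0.21 at 1 h (limma adjusted p = 0.59). The probe lies at chr16:57169122-57169181 (mm9), and a dimmer probe for the gene gave a like interaction (-0.18 for both). The sources do not say whether either probe matches the construct, so this neither shows nor excludes the overexpression that the label states, and the line is called by its label.

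After 1 h the rise of most LPS-induced genes was smaller in the Tbc1d23-labelled line. For a short list, Zfp36, Cd83, Pim1, Fos and Ier2 among them, the size of the rise was within 2-fold between lines. The interaction was called for 878 of 15032 genes (5.84%), of which 519 were below 0 (3.45%) and 359 above (2.39%). Those that differed at least 2-fold were 312 below 0 (2.08%) and 61 above (0.406%). The CAT line had 949 genes called up (6.31%) and 1696 called down (11.3%), and the Tbc1d23-labelled line 214 up (1.42%) and 485 down (3.23%). Of the interaction calls 59.1% were below 0. The split turned with the scaling of the arrays: with median scaling, which moved the median interaction of all genes by 0.42, it was 192 below and 284 above, and with quantile normalization 556 below and 591 above. Without the slide as a block the calls numbered 268 below and 94 above. Leaving out the whole slide of Tbc1d23 replicate 1 left 341 below and 157 above, and leaving out CAT replicate 2 left 343 below and 168 above.

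To set the strength of each response without favouring a line, genes were sorted by the mean of the responses of both lines, a quantity that, with equal groups, is independent of their difference. A mean response called and of at least 2-fold gave 206 induced genes (1.37% of those tested). Of these, 169 had an interaction called below 0 (weakened) and 4 above 0 (larger). Another 11 were kept, which required a called rise in each line, an interaction not called, and a 95% confidence interval of it within 2-fold either way. Over all genes tested 0.958% met the terms on the interaction with a called response in each line, be it a rise or a fall. The terms on the interaction alone were met by 71.4%. The remaining 22 were undecided. The weakened share of the induced set was 82% and depended on the scaling: with median scaling it was 45.2% of 325 induced genes, 118 of which were undecided and 55 kept, with quantile normalization 63.9% and with the deposited values 64.1%. The slide run that holds both lines has 1 slide of the Tbc1d23-labelled line. Within it the median interaction of the genes induced there was -1.69. The median rise of the 206 was 2.80 in the CAT line and 0.88 in the Tbc1d23-labelled line, with a median interaction of -1.93, against medians of -0.10, -0.09 and 0.00 over all genes tested. By slide the median rise of these genes was 3.03, 2.77 and 2.82 in CAT cells and 0.79, 0.95 and 0.95 in Tbc1d23-labelled cells, so the lines did not overlap. The rise was the smaller one in the Tbc1d23-labelled line for 194 of the 206, it was below 50% of the CAT rise on the log2 scale for 139, and it was called at all for 135, against 203 in the CAT line. Of the 169 weakened genes 117 were well above background on all 12 arrays. The median interaction, taken relative to the median of all genes, was -1.43 under median scaling and -1.51 under quantile normalization.

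**Figure D1:**
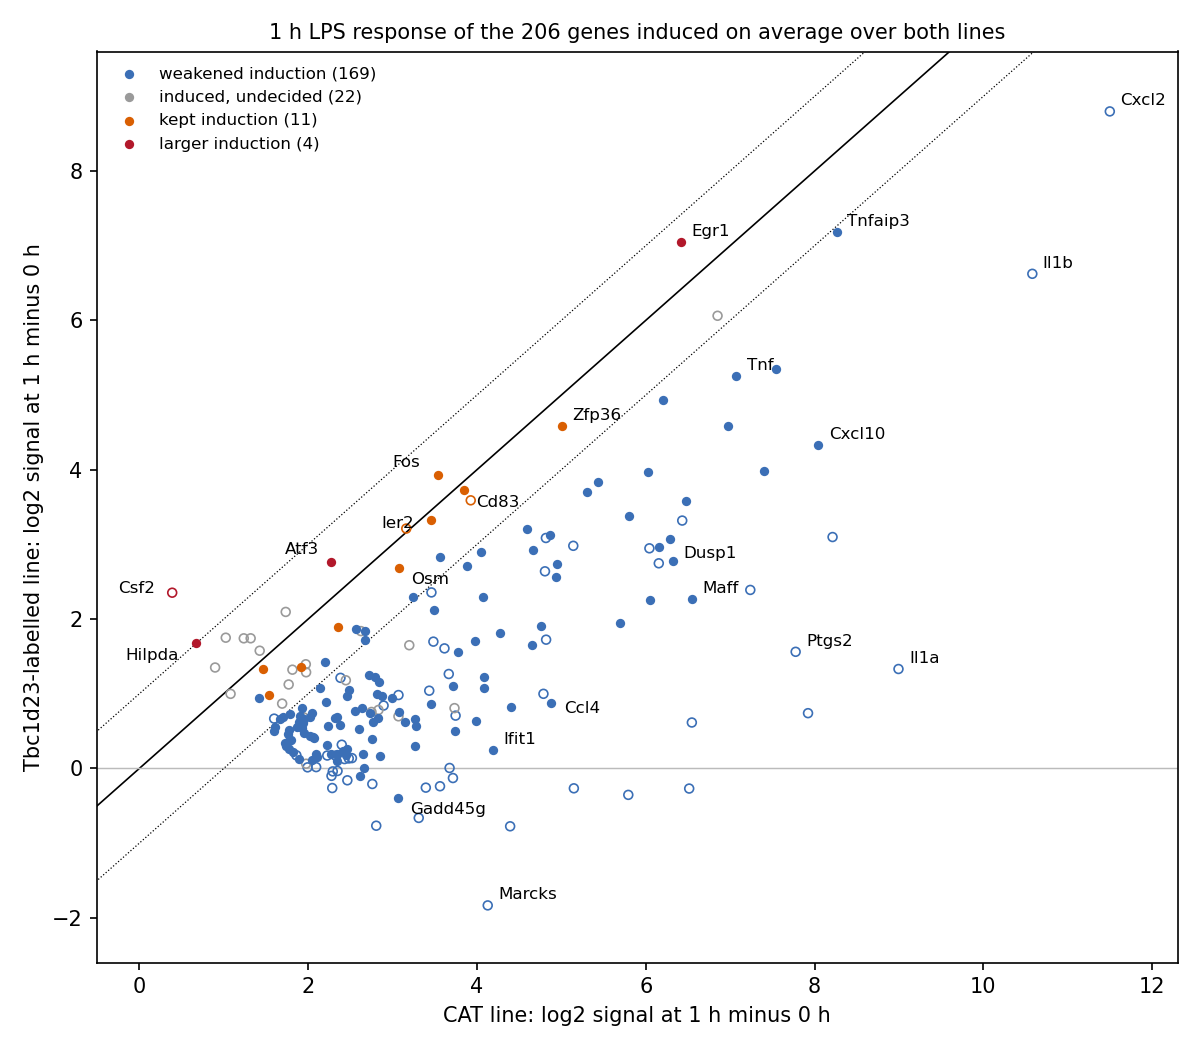
Rise in log2 signal at 1 h in the CAT line (horizontal) and in the Tbc1d23-labelled line (vertical) for the 206 induced genes; the solid line marks equal rises and the dotted lines 2-fold either way. Open circles are genes not well above background on all 12 arrays. The 169 weakened genes lie below the solid line, while Zfp36, Cd83, Fos and Ier2 lie near it and Egr1, Atf3, Hilpda and Csf2 above it.

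Among the weakened genes measured on all 12 arrays, the lowest interaction was that of Maff, a small MAF transcription factor. Its level was -1.51, -0.71 and -1.22 in CAT cells at 0 h and 5.23, 5.68 and 5.30 at 1 h. In Tbc1d23-labelled cells it was 1.60, 1.76 and 2.01 at 0 h and 3.53, 4.27 and 4.38 at 1 h. The Tbc1d23-labelled arrays were thus the higher ones before LPS and the lower ones after it, with no overlap at either time. The rise was 6.55 in the CAT line and 2.27 in the other, an interaction of -4.28 ± 0.20 (limma adjusted p = 5.19e-09).

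Cxcl10, a chemokine for activated T cells and an early interferon-response gene, started at -0.99, -1.01 and -1.03 in CAT cells and reached 6.97, 7.08 and 7.06. Tbc1d23-labelled cells went from 0.16, 0.48 and 0.24 to 4.48, 4.77 and 4.61. Every CAT array lay above every Tbc1d23-labelled array at 1 h and below at 0 h. The interaction of Cxcl10 was -3.72 ± 0.12 (limma adjusted p = 2.0e-10).

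Dusp1, the phosphatase that switches off p38 and JNK, rose from -0.47, -0.13 and -0.01 to 5.77, 6.21 and 6.28 in CAT cells. In Tbc1d23-labelled cells it rose from 0.50, 0.54 and 0.26 to 3.53, 3.71 and 3.24. The groups did not overlap at 1 h, and the interaction was -3.23 ± 0.13 (limma adjusted p = 1.2e-09).

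A gene can be weakened by a higher start as well as by a lower end, and Ccl4 and Tnf show the former. Ccl4, a macrophage chemokine, stood at 2.45, 2.66 and 2.45 in unexposed CAT cells and at 7.63, 7.78 and 7.65 in unexposed Tbc1d23-labelled cells. At 1 h it was 7.34, 7.53 and 7.33 against 8.46, 8.76 and 8.47. The Tbc1d23-labelled arrays were the higher ones at both times, by 5.17 at 0 h and 1.16 at 1 h, and the rise was 4.88 in CAT cells and 0.87 in the others (interaction -4.01 ± 0.14, limma adjusted p = 2.1e-10). Tnf, the cytokine, stood at -0.24, -0.57 and -0.74 in unexposed CAT cells and 1.29, 1.29 and 1.65 in unexposed Tbc1d23-labelled cells. At 1 h its levels were 6.54, 6.55 and 6.59 against 6.60, 6.54 and 6.86, which overlap. The interaction of Tnf was -1.82 ± 0.13 (limma adjusted p = 4.3e-07), while the line difference at 1 h was 0.11 (limma adjusted p = 0.56).

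Ifit1, an interferon-induced protein that binds foreign RNA, rose in CAT cells from -3.02, -3.83 and -3.16 to 0.57, 1.05 and 0.92. In Tbc1d23-labelled cells it was -1.78, -1.50 and -1.78 before and -1.47, -1.46 and -1.40 after LPS. Its rise of 0.24 in the Tbc1d23-labelled line was not called (limma adjusted p = 0.48), and the interaction was -3.95 ± 0.25 (limma adjusted p = 8.0e-08). The other genes of this ranking were Traf1 (a TNF receptor adaptor), Ppp1r15a (a phosphatase subunit of the stress response), Csrnp1 (a nuclear immediate early protein), Acod1 (the enzyme that makes itaconate), Gadd45g (a stress sensor) and Phlda1. Their interactions ran from -3.80 for Traf1 to -3.43 for Phlda1. Gadd45g rose by 3.06 in CAT cells, and its value in the Tbc1d23-labelled line was -0.39 (limma adjusted p = 0.13).

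**Figure D2:**
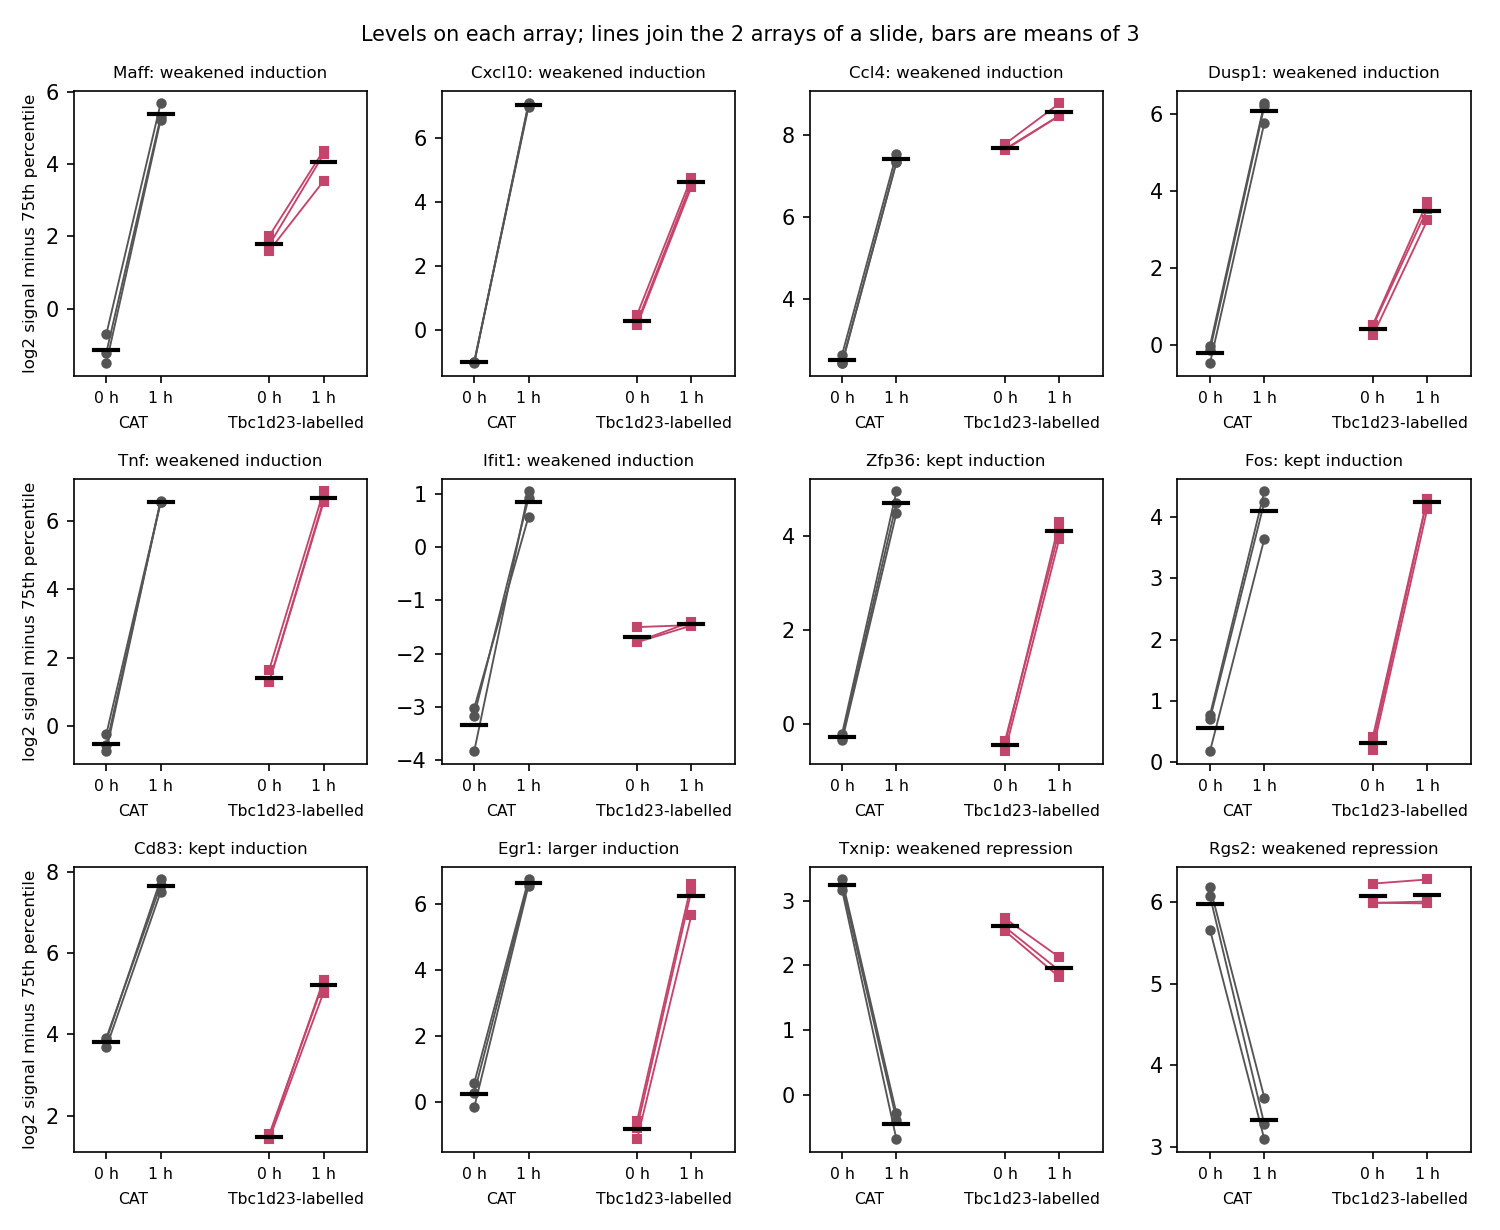
Level of 12 genes on each array (log2 signal minus the array's 75th percentile) at 0 and 1 h in CAT cells (grey circles) and Tbc1d23-labelled cells (red squares); each line joins 1 slide and each bar is a mean of 3. Maff, Cxcl10, Ccl4, Dusp1, Tnf and Ifit1 rise less steeply in red, Zfp36, Fos, Cd83 and Egr1 rise about as steeply in both, and Txnip and Rgs2 fall steeply only in grey.

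The kept genes were few, 11 of 206, and 2 of them (Fos, Ier2) belong to the list of immediate early factors. Without CAT replicate 1 they numbered 6. Of the 11, 9 carry a gene symbol, and 8 of those were well above background on all 12 arrays. Zfp36, which encodes tristetraprolin, a protein that marks cytokine mRNAs for decay, rose from -0.36, -0.31 and -0.21 to 4.49, 4.71 and 4.96 in CAT cells. In Tbc1d23-labelled cells it rose from -0.59, -0.37 and -0.43 to 3.95, 4.12 and 4.30. The levels overlapped at 0 h and lay lower in the Tbc1d23-labelled line at 1 h. The rises were 5.01 and 4.59, and the interaction of -0.42 had an interval of -0.70 to -0.14 (limma adjusted p = 0.079).

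Fos, a subunit of AP-1, went from 0.18, 0.71 and 0.77 to 3.64, 4.24 and 4.41 in CAT cells and from 0.20, 0.42 and 0.31 to 4.12, 4.29 and 4.28 in Tbc1d23-labelled cells. The lines overlapped at both times. The interaction was 0.38 with an interval of -0.04 to 0.80 (limma adjusted p = 0.33). Ier2, another immediate early nuclear protein, rose from 2.31, 2.42 and 2.50 to 5.76, 5.98 and 5.85 in CAT cells and from 2.25, 2.31 and 2.37 to 5.54, 5.72 and 5.66 in the others. These are nearly the same levels, and the interaction of Ier2 was -0.13 with an interval of -0.32 to 0.07 (limma adjusted p = 0.52). A dimmer probe of Ier2 did not follow this one, with -0.26 in CAT cells and 0.61 in the other line. Its interaction of 0.88 was called above 0 (limma adjusted p = 0.016), so Ier2 was kept by its brighter probe only.

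Cd83, a surface protein of activated antigen-presenting cells, kept its rise from a lower level. It went from 3.85, 3.91 and 3.68 to 7.80, 7.66 and 7.49 in CAT cells and from 1.42, 1.54 and 1.48 to 5.03, 5.27 and 5.33 in Tbc1d23-labelled cells. Every Tbc1d23-labelled array was below every CAT array at the same time, by 2.33 on average at 0 h and 2.44 at 1 h, while the rises were 3.84 and 3.73 (interval of the interaction -0.33 to 0.11). Osm, the cytokine oncostatin M, rose by 3.07 and 2.69, from -2.42, -2.10 and -1.93 to 0.44, 1.10 and 1.23 in CAT cells and from -1.76, -2.19 and -1.62 to 0.78, 0.64 and 1.09 in the others. Its groups overlap at both times, and the interval of its interaction was -0.81 to 0.05. A dimmer probe of Osm gave 4.11 and 2.94.

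Smaller kept rises were those of Fabp4, a fatty acid-binding protein (1.47 in CAT cells and 1.33 in the other line), Cdc42ep4, an effector of the GTPase CDC42 (1.92 and 1.36), and Ccnl1, a cyclin of RNA processing (1.53 and 0.99). Pim1, a kinase induced by cytokines, rose by 3.93 and 3.59 but was well above background on 2 of the 3 arrays of unexposed Tbc1d23-labelled cells. The intervals of Cdc42ep4 (-0.98 to -0.14) and Ccnl1 (-0.96 to -0.13) come close to 2-fold. The interaction of Cdc42ep4 was called below 0 in 5 of 17 alternatives (lowest limma adjusted p = 0.0198, without CAT replicate 3), and that of Ccnl1 in 1 (limma adjusted p = 0.00219, without CAT replicate 1), so that neither was kept in every setting.

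The 4 larger inductions were Egr1, Atf3, Hilpda and Csf2. Egr1, a zinc finger transcription factor, rose from -0.16, 0.57 and 0.27 to 6.55, 6.74 and 6.63 in CAT cells and from -0.78, -0.57 and -1.13 to 6.40, 6.61 and 5.66 in Tbc1d23-labelled cells. Its start was the lower one in the Tbc1d23-labelled line and its levels at 1 h overlapped, with rises of 6.41 and 7.05 (interaction 0.63 ± 0.15, limma adjusted p = 0.023). Atf3, a transcription factor that restrains cytokine genes, rose by 2.27 and 2.76 from a start that was lower by 3.32 in the Tbc1d23-labelled line (interaction 0.49 ± 0.11, limma adjusted p = 0.015). Both calls are close to the threshold and were lost in 10 of 17 alternatives for Egr1 and in 11 for Atf3, always with the same sign. Among these were the settings without CAT replicate 2 and without Tbc1d23 replicate 1 for both, without CAT replicate 3 and without Tbc1d23 replicate 2 for Egr1, and without Tbc1d23 replicate 3 for Atf3. Hilpda, a lipid droplet protein, rose from 1.65, 1.86 and 1.80 to 2.38, 2.61 and 2.32 in CAT cells and from 2.40, 2.61 and 2.64 to 4.08, 4.29 and 4.30 in the others. No array of one line overlapped the other line at the same time, and the interaction was 1.00 ± 0.11 (limma adjusted p = 3.2e-05). Csf2, the cytokine GM-CSF, was not well above background on any CAT array at either time and was so on all 3 arrays of Tbc1d23-labelled cells at 1 h, where it was at least 6.39-fold higher than in CAT cells at 1 h.

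Promoter sequences of a pair of kept genes (Fos, Zfp36) and a pair of weakened genes (Cxcl10, Tnf) are printed with short motifs marked. So few genes show neither overlap nor separation of the classes. Each is the 250 bases before the start site from RefSeq (GRCm38.p6), printed 5′ to 3′ on the gene's strand: Fos at chr12:85473640-85473889, plus strand, Zfp36 at chr7:28379229-28379478, minus strand, Cxcl10 at chr5:92348890-92349139, minus strand, and Tnf at chr17:35202008-35202257, minus strand. Capitals mark matches to the NF-kB motif (GGG, 2 bases, then TTNCC), the interferon response element (GAAA, 2 bases, then GAAA), the AP-1 motif TGANTCA and the CRE half-site TGACGT on either strand, the TATA box TATAAA on the gene's strand, and the CArG box, the motif of serum response factor. A CArG box can overlap a TATA box.
Fos: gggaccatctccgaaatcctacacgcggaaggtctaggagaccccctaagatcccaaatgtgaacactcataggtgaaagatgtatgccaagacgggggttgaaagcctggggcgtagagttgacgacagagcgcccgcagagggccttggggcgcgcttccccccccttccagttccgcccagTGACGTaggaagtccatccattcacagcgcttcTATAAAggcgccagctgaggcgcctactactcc
Zfp36: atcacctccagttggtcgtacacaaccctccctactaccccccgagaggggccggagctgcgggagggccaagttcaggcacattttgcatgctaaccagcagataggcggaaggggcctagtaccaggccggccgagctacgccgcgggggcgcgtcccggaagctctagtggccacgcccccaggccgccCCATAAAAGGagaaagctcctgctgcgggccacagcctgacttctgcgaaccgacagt
Cxcl10: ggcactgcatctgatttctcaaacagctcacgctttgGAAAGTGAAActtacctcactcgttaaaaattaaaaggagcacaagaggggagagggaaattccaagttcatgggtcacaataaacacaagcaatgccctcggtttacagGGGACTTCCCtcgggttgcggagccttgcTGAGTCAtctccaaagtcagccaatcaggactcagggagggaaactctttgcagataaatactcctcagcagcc
Tnf: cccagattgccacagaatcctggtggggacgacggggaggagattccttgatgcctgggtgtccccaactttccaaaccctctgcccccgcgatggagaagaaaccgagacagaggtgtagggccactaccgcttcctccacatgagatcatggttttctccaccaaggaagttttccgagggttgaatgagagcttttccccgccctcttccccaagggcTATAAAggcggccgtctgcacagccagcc

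Fos held a CRE half-site and a TATA box, Zfp36 a CArG box, Cxcl10 an interferon response element, an NF-kB motif and an AP-1 motif, and Tnf a TATA box in this window. A window, which also takes in the 50 bases after the start site, was listed for 10354 of the 15032 genes tested and for 121 of the 169 weakened genes. The NF-kB motif was in 14 of those 121 (11.6%) and in 5.25% of all genes with a window. The interferon response element was in 13 (10.7%, against 3.15%), the AP-1 motif in 14 (11.6%, against 5.4%), the TATA box in 17 (14%, against 5.73%), the CRE half-site in 15 (12.4%, against 11.6%) and the CArG box in 3 (2.48%, against 1.27%). Of the 15 kept or larger inductions only 8 had a window, of which 3 held a CRE half-site and 1 each an NF-kB motif, an AP-1 motif, a TATA box and a CArG box. A match is a run of letters and no measure of binding, and a motif not matched may lie outside the window or differ from the pattern searched.

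Ordered by role, every inflammatory list but that of the TLR4 pathway held weakened rises. Of all 206 induced genes 82% were weakened, so a high weakened share is not particular to a list. No list was tested against that share. Over all genes tested 3.45% had an interaction below 0 and 2.39% above, beside which the counts of each list stand. Of 26 immediate early transcription factors tested, 20 were induced, of which 15 were weakened, 2 kept (Fos, Ier2), 2 larger (Egr1, Atf3) and 1 undecided (Fosb). The list had 18 interactions below 0 and 2 above, with a median of -1.26, against 0.00 and 3.45% below 0 over all genes. Among AP-1 subunits, Jun rose by 2.82 in CAT cells and 0.99 in the other line, Junb by 3.49 and 2.12, and Fos by 3.54 and 3.92. Among EGR factors the rises were 6.20 and 4.94 for Egr2, 6.43 and 3.32 for Egr3, and 6.41 and 7.05 for Egr1. The Egr2 interaction of -1.26 lost its call in 5 of 17 alternatives, one of them without Tbc1d23 replicate 1 (limma adjusted p = 0.0672). Myc, the growth-promoting factor, rose by 6.04 and 2.95, and the orphan receptor Nr4a1 by 6.98 and 4.58. Egr3 and Myc were well above background on 2 of the 3 arrays of unexposed Tbc1d23-labelled cells.

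All 7 induced members of the MAP kinase feedback list were weakened, of 14 tested, as were 82% of all induced genes. Beside Dusp1 these included Dusp2 (5.30 in CAT cells, 3.70 in the other line), Errfi1, an inhibitor of the EGF receptor (5.80 and 3.37), Gadd45b (3.24 and 2.29) and Dusp4 (2.85 and 0.16). Dusp4 started 4.98 higher in Tbc1d23-labelled cells and stayed 2.29 higher at 1 h. Dusp6, which acts on ERK, fell in both lines, by 1.69 in CAT cells and by 0.78 in the other, with an interaction whose call was lost in 10 of 17 alternatives, among them the settings without each replicate but CAT replicate 1 (highest limma adjusted p of these 0.217).

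All 11 induced members of the NF-kB list were weakened, of 20 tested, as were 82% of all induced genes. Of the 20, 14 had an interaction below 0 (3.45% of all genes) and none above. The feedback inhibitor Tnfaip3 (A20) rose by 8.26 and 7.18 (interaction -1.08 ± 0.14, limma adjusted p = 0.00017) and Nfkbia (IkB alpha), which holds NF-kB in the cytoplasm, by 3.56 and 2.84 (-0.73 ± 0.13, limma adjusted p = 0.0025). Nfkbiz rose by 7.54 and 5.34, Relb by 2.72 and 1.26, Nfkbie by 2.88 and 0.97, and Traf1 by 6.06 and 2.26. Differences among these members were not tested. With median scaling the interactions below 0 numbered 6 in this list and 9 among the immediate early factors.

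Among 18 cytokines tested, 13 were induced: 9 weakened, 1 kept (Osm), 1 larger (Csf2) and 2 undecided (Il10, Il23a). Of the 13, 6 were not well above background on any array of unexposed CAT cells. In unexposed Tbc1d23-labelled cells this held for 5. From such a start a rise is a lower bound, and where that line's start was so, its bound does not show a smaller rise. Il1b reached 6.86, 6.62 and 6.41 in CAT cells at 1 h and 1.06, 1.05 and 1.34 in Tbc1d23-labelled cells, and was not well above background in unexposed Tbc1d23-labelled cells. Il1b thus rose at least 40.2-fold in that line, and by 10.58 log2 units in CAT cells. Il1a was well above background on all 3 arrays only in CAT cells at 1 h, where it was at least 173-fold above its start. Ifnb1, which encodes interferon beta, rose at least 100.2-fold in CAT cells and at least 4.22-fold in the other line. Tnfsf9 (4-1BB ligand) rose by 2.68 and 1.84, and Csf1, the macrophage growth factor, by 3.46 and 2.36. The Csf1 interaction ran from -1.33 to -0.29 over 16 alternatives and lost its call in 9, among them those without CAT replicate 1, Tbc1d23 replicate 1 or Tbc1d23 replicate 2 (limma adjusted p up to 0.0905). The list had 9 interactions below 0 and 1 above. Within the slide run that holds both lines 5 were below 0, and 3 were with the filter on all arrays, which tests fewer genes.

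The chemokine list had 6 induced members of 16 tested, all weakened, as were 82% of all induced genes. It had 9 interactions below 0 (3.45% of all genes) with none above. Of these 6, 3 were not well above background on any array of unexposed CAT cells, so their CAT rises are bounds. Cxcl2, a neutrophil chemokine and 1 of the 3, rose at least 816-fold in CAT cells and by 8.80 log2 units in the other line. These values are on unlike scales, a fold and a log2 rise, and cannot be set side by side as printed. The levels of Cxcl2 at 1 h differed by -0.19 between lines (limma adjusted p = 0.57). The Cxcl2 interaction ran from -3.15 to -0.28 over 16 alternatives and lost its call in 3. Cxcl11 rose at least 31.2-fold in CAT cells, and its value in the Tbc1d23-labelled line was 0.61 (limma adjusted p = 0.2). Ccl2, a monocyte chemokine, rose by 2.79 and 1.22 from starts that differed by -0.04. Ccl3, below the 2-fold mean rise, rose by 1.90 in CAT cells from a start 3.82 lower than in Tbc1d23-labelled cells, whose value was -0.02.

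Of 15 signalling inhibitors and mRNA decay factors 7 were induced, with 5 weakened, 1 kept (Zfp36) and 1 undecided (Arid5a, called below 0 without Tbc1d23 replicate 2, limma adjusted p = 0.0199). Socs1, an inhibitor of JAK kinases, rose by 2.67 in CAT cells, and its value in the other line was 0.00. Socs3 rose by 3.88 and 2.72, and Zc3h12a, the RNase regnase-1, by 4.82 and 3.09. The list had 6 interactions below 0 and none above.

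Of 42 interferon-stimulated genes 5 were in the induced set at 1 h, which took in 1.37% of all genes tested. All 5 were weakened, as were 82% of all induced genes: Ifit1, Isg15 (3.74 and 0.50), Oasl1 (3.27 and 0.30), Rsad2 (3.07 and 0.98) and Gbp3 (2.76 and 0.62). Over the 42 genes 10 interactions were below 0 and 3 above, with a median of 0.16. The TLR4 pathway itself had 3 interactions below 0 and 1 above among 27 genes, with a median of -0.02, and none below 0 with median scaling. Those below were the adaptor Ticam1 (1.28 and 0.06), the kinase Irak2 (1.00 and 0.15) and the co-receptor Cd14 (1.08 and 0.20). Tlr4 fell by 1.03 in CAT cells, and its value in the other line was -0.32, with an interaction of 0.71 that was not called (limma adjusted p = 0.055). It was called in 7 of 17 alternatives, with the lowest limma adjusted p (0.00658) without CAT replicate 1.

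Inflammatory enzymes and surface proteins had 18 induced members of 38 tested, with 15 weakened, 1 kept (Cd83) and 2 undecided (F3, Ccrl2). A dimmer probe of Ccrl2 gave an interaction of -1.99 (limma adjusted p = 0.0024). Ptgs2, the prostaglandin synthase COX-2, was not well above background in unexposed CAT cells and stood at 0.71, 0.87 and 0.62 in unexposed Tbc1d23-labelled cells, at least 43.8-fold higher. At 1 h it reached 1.73, 1.80 and 2.08 in CAT cells and 2.58, 2.29 and 2.03 in the others, which overlap. The rise was at least 96-fold in CAT cells and 1.56 log2 units in Tbc1d23-labelled cells. Pde4b, a cyclic AMP phosphodiesterase, rose by 4.87 and 3.13 log2 units, and Marcksl1 by 4.28 and 1.82.

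Outside the inflammatory programme, of 18 p53 targets 5 interactions were below 0 (3.45% of all genes) and none above. The 3 induced members, Plk2 (3.78 and 1.56), Cdkn1a (2.22 and 0.31) and Mdm2 (1.82 and 0.22), were all weakened, as were 82% of all induced genes. Their starts were 4.08, 2.88 and 2.76 higher in Tbc1d23-labelled cells. Within the slide run that holds both lines 2 of the p53 targets were below 0. Of 18 ATF4 and CHOP targets 2 were below 0 and 2 above, and 1 was below 0 without Tbc1d23 replicate 1 or Tbc1d23 replicate 3. Among genes outside the induced and repressed sets, the lowest interactions were those of Grasp, Ccl3, Zyx, Jag1 and Lima1 (-1.99 to -1.81). Zyx, a focal adhesion protein, rose by 1.80 in CAT cells with -0.12 in the other line. Jag1, a Notch ligand, rose by 1.87 with a value of 0.00 in the other line. The highest were those of Neurl3, Lhfpl2, Zfp354a, Tmem86a and Zfp53 (1.48 to 1.28), genes that fell in CAT cells. Of these 5 only Zfp53 also had a called fall in the other line (-1.62 and -0.34). A second probe of Neurl3 gave -0.05. Calls close to the threshold here were those of Grasp, Lhfpl2 and Neurl3, with limma adjusted p up to 0.0778, 0.182 and 0.188 without single replicates, at least 4 of the 6 ending each call.

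**Figure D3:**
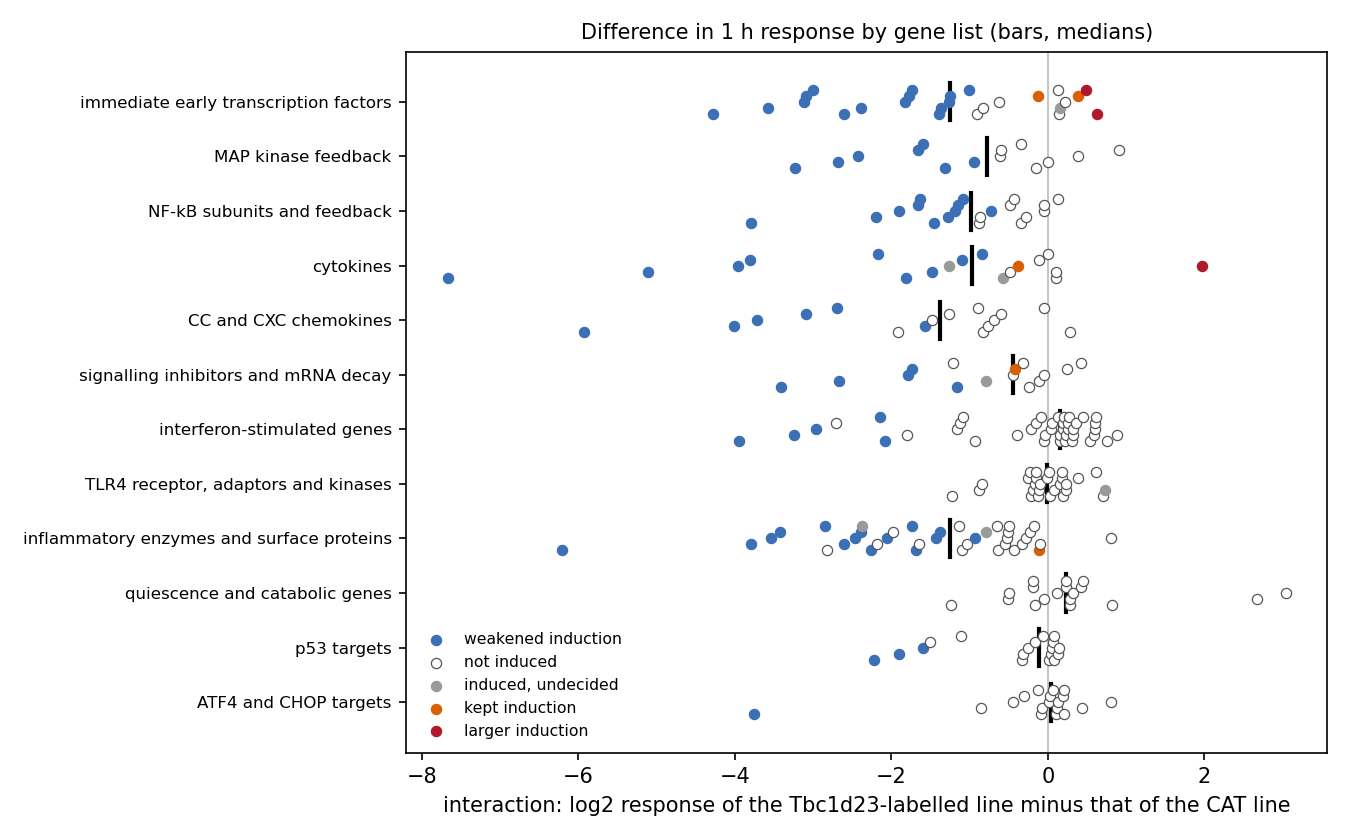
Interaction (log2 response of the Tbc1d23-labelled line minus that of the CAT line) of each tested gene, by list; filled points are induced genes coloured by class, open points are the rest, and black bars are list medians. Medians run from -1.37 for chemokines to 0.24 for quiescence and catabolic genes, and kept or larger members lie in the lists of immediate early factors, cytokines, signalling inhibitors and surface proteins.

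Induced genes tended to start higher and end lower in Tbc1d23-labelled cells. At 0 h 109 of the 206 were called higher in the Tbc1d23-labelled line and 37 lower, where over all genes 25.2% were called higher and 20.1% lower. At 1 h 25 were higher and 134 lower, against 24.8% and 21.1% of all genes. The median difference was 0.64 at 0 h and -1.20 at 1 h, against 0.09 and 0.06 over all genes. Of the 169 weakened genes 53 started higher and ended lower, 28 started higher with no called difference at 1 h, 19 were higher at both times, 41 ended lower from a start with no called difference, and 27 were lower at both times. The interaction is the difference between these values, so these counts describe the weakened genes and test nothing. The kept genes had median differences of -0.17 at 0 h and -0.29 at 1 h. Their starts were not alike, however: at 0 h 2 of the 11 were called higher and 3 lower, such as Fabp4 (3.18) and Cd83 (-2.33). Line differences lie between slides and were fitted without the slide as a block.

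**Figure D4:**
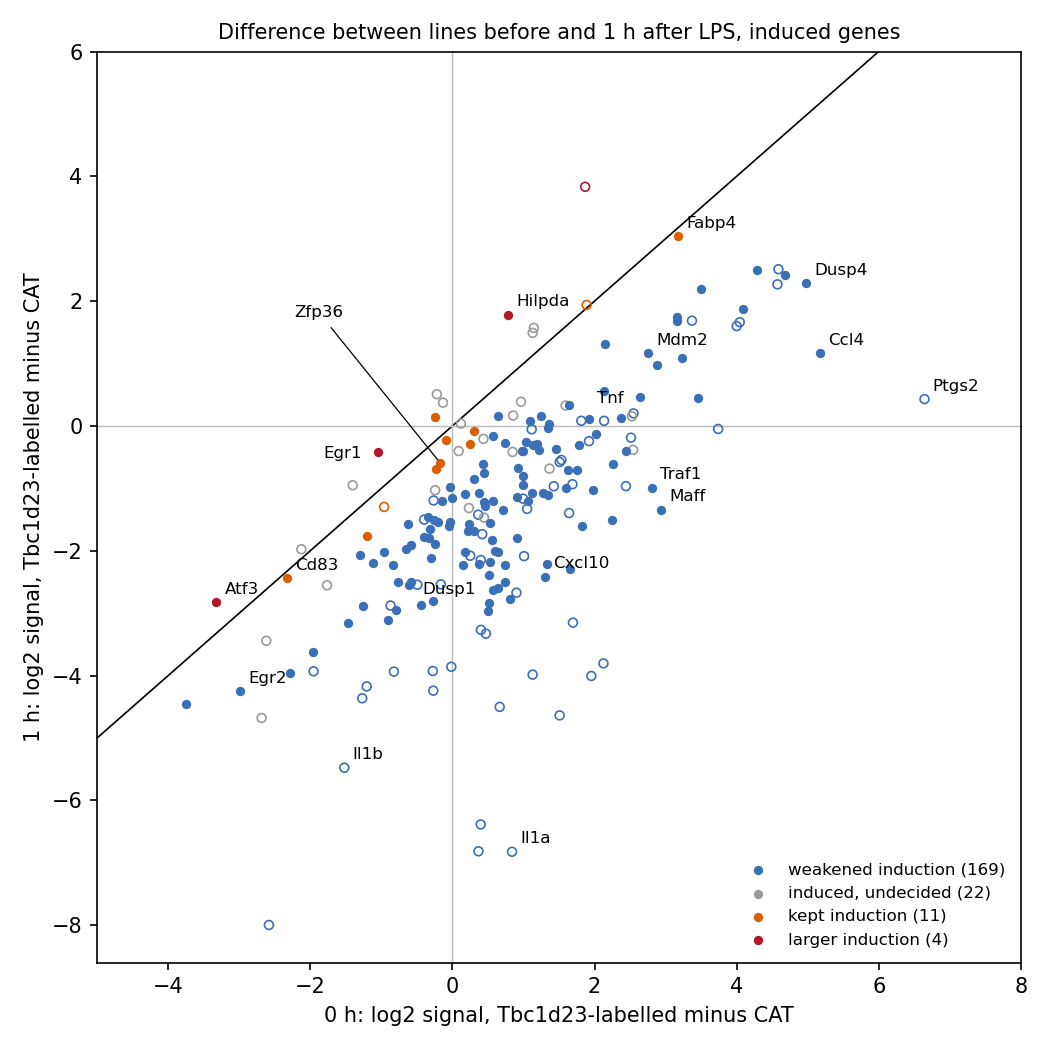
Difference in log2 signal, Tbc1d23-labelled minus CAT, at 0 h (horizontal) and at 1 h (vertical) for the 206 induced genes; on the solid line the difference did not change, and open circles are genes not well above background on all 12 arrays. Ccl4 starts 5.17 higher and ends 1.16 higher. Ptgs2 is drawn at 6.64 higher at 0 h, where its CAT signal was not well above background, and ends 0.43 higher. Maff and Cxcl10 start higher and end lower, and Cd83, Zfp36 and Fabp4 lie near the line.

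Among genes that fell within 1 h, 42 fell less in the Tbc1d23-labelled line, led by Txnip and Rgs2. A mean response called and at or below a 2-fold fall was met by 186 genes (1.24%): 42 weakened, 17 kept, 21 larger and 106 undecided. Over all 186 genes the medians were -1.21 in CAT cells and -1.4 in Tbc1d23-labelled cells, with a median interaction of -0.12. As a set these genes thus did not fall less in the Tbc1d23-labelled line, though only 49 were well above background on all 12 arrays. The weakened falls, a class chosen by its interaction, had medians of -1.94 in CAT cells and -0.62 in Tbc1d23-labelled cells. Txnip, an inhibitor of thioredoxin and of glucose uptake, fell from 3.16, 3.24 and 3.33 to -0.69, -0.38 and -0.29 in CAT cells and from 2.53, 2.59 and 2.73 to 1.82, 1.92 and 2.13 in the others. The lines did not overlap at either time, and the interaction was 3.04 ± 0.11 (limma adjusted p = 4.1e-10). Rgs2, a regulator of G protein signalling, fell from 5.66, 6.19 and 6.08 to 3.09, 3.60 and 3.28 in CAT cells, while in Tbc1d23-labelled cells it was 5.99 to 6.23 before and 5.99 to 6.28 after LPS. Its starts overlap and its levels at 1 h do not (interaction 2.67 ± 0.20, limma adjusted p = 4.4e-07).

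The other weakened falls named by rank were Zkscan14 (-2.35 and -0.48), Zfp30 (-2.28 and -0.46), both zinc finger proteins, and the demethylase Alkbh4 (-2.22 and -0.43). Kept falls were led by Ikzf1, a lymphoid and myeloid zinc finger factor, from -2.19, -1.92 and -2.09 to -3.74, -4.04 and -3.62 in CAT cells and from -1.25, -1.17 and -1.13 to -2.65, -3.01 and -2.45 in the others. Every Tbc1d23-labelled array lay above every CAT array at the same time, and the falls were -1.73 and -1.52 (limma adjusted p of the interaction 0.67). The small nucleolar RNA host genes Snhg5 (-1.56 and -1.02) and Snhg20 (-1.40 and -1.01), with Nsl1 (-1.32 and -0.75) and Zfp658 (-0.90 and -1.10), completed this ranking. The interactions of Snhg5 and Nsl1 were called above 0 in 5 and 3 of 17 alternatives, both without CAT replicate 1 (limma adjusted p = 0.00389 and 0.000424). Of the 21 larger falls 1 was well above background on all 12 arrays and 14 were not so on any array of Tbc1d23-labelled cells at 1 h. Without the slide of the array with the highest detection (Tbc1d23 replicate 1) the larger falls numbered 11, and without other single slides they numbered 2, 6 and 9 (CAT replicates 2, 1 and 3) and 41 and 64 (Tbc1d23 replicates 3 and 2). That array's part in them was not tested further. Of 18 quiescence and catabolic genes 2 interactions were below 0 and 3 above, and the 2 repressed members were Txnip and Rgs2. The number below 0 was 0 to 3 over the 17 alternatives, and 0 without CAT replicate 2, Tbc1d23 replicate 1 or Tbc1d23 replicate 2.

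**Figure D5:**
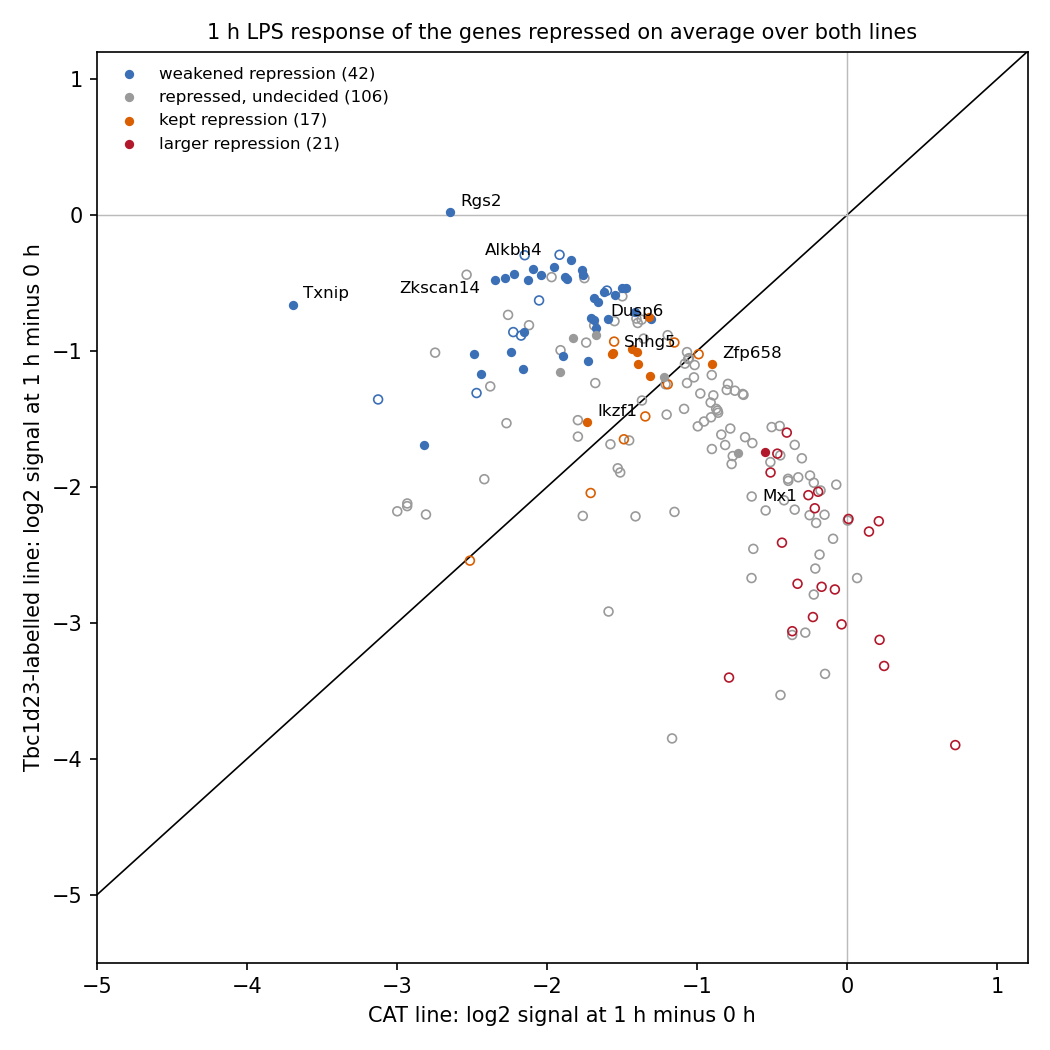
Change in log2 signal at 1 h in the CAT line (horizontal) and in the Tbc1d23-labelled line (vertical) for the 186 repressed genes; the solid line marks equal falls, and open circles are genes not well above background on all 12 arrays. Txnip and Rgs2 fell by 3.70 and 2.65 in CAT cells and lie well above the solid line, and the 21 larger falls are nearly all open circles.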

How the data were processed

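Scanner intensities were deposited by the authors, with a file for each array. Per the file headers they come from Agilent Feature Extraction 10.7.1.1 on 1-colour Cy3 arrays, and probe coordinates are those of mm9. The processed signal is the background-subtracted intensity, with low values replaced by a surrogate. A deposited table holds log2 values, a scale found from the values and not stated, and was used as an alternative; RMA and Partek also appear in the submitters' processing notes, with no role or order.

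From 43379 spots of 41174 probes, outlier spots were left out and spots of a probe averaged. Each signal was divided by its array's 75th percentile (194.6 to 363.5 signal units on these 12 arrays) before log2. A probe was kept where at least 1 of the 8 groups had it well above background on its 3 arrays (21852 probes), and each gene was represented by its brightest probe on average, leaving 15032 names, of which 2610 are no symbol. Names came from the files and were updated through RefSeq by accession (25097 and 156 probes) or by name (7843), with 8078 probes not matched. limma 3.58.1 (R 4.3.3, the data.table package in version 1.17.8; lmFit and eBayes) was fitted on all 24 arrays, line by time, with the slide as a block (12 residual degrees of freedom). On simulated arrays with 200 changed genes among 15032, the interaction test recovered 85% of log2 changes of 2 and 68% of changes of 1, and 14 of its 167 calls were of unchanged genes. The simulated spread was drawn independently for each gene and array. It had no effects shared across an array and no signal floor, so the real arrays may do less well. Number of arrays limits the precision, and an exact permutation test of 3 against 3 cannot give a p below 0.1.

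Replicate numbers pair the arrays of a line because they share a slide, as the slide barcodes show; deviations of arrays with the same number correlated at 0.269 to 0.789. A number shared between the lines pairs nothing. Time and array position on the slide coincide in both lines. Where a group was not well above background, a fold is "at least" the brighter mean over a floor, which on each array is the dimmest signal well above background, or the probe's own signal if higher. Where both groups were not, no fold is given.

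Genes are named by rank: symbols well above background on all 12 arrays whose slides do not overlap between lines (the 10 lowest interactions among weakened, 8 highest among larger and 5 highest among weakened falls), the 10 highest kept rises and 5 lowest kept falls with no rule on overlap, the 5 highest and 5 lowest interactions outside both sets, up to 8 members per list by size of mean response, and Tbc1d23. Others, such as Csf2, Pim1, Jun, Junb, Marcks and Cd86, were chosen after their values were seen. A gene that the rule names is not reported here, though the counts include it. The comparison, the 19 lists (12 by function, 7 of markers) and the rules were chosen with earlier results of these data known. Alternatives changed scaling, background correction, filter, probe choice, block and arrays; normexp background correction failed on 6 arrays and was used in a repaired form, chosen after seeing the data.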

Additional observations from a re-analysis of the deposited data

Results flagged for a closer look

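The lines' 1 h responses differed by the test of the difference itself (limma interaction, adjusted p under 0.05) for 878 genes. Among induced genes the difference was called for 169 weakened and 4 larger rises, and among repressed genes for 42 weakened and 21 larger falls. For no gene named by rank were the responses of both lines called in opposite directions. Over all genes tested this held for 6, none of them well above background on all 12 arrays, and 3 with a symbol that is no clone name, chosen here after their values were seen. Marcks, a protein of the membrane skeleton, was at least 5.79-fold higher at 1 h than at 0 h in CAT cells. In Tbc1d23-labelled cells Marcks was well above background on 1 array, at 0 h in replicate 1, the array with the highest detection. Cd86, a costimulatory protein, had responses of 0.84 in CAT cells and -1.35 in the other line, and Plek2 of 1.88 and -1.63. Groups here hold 3 arrays, too few for a test of single outlying arrays.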

How the results depend on the processing

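The number of weakened rises stayed within 1.5 times of 169 in all 17 alternatives (117 to 180), the lowest with a filter on all 24 arrays, which tests fewer genes; between 117 and 167 of the 169 genes themselves recurred. Their share of the induced set moved more, from 82% to 45.2% with median scaling, where the induced set grew to 325. Kept rises numbered 18 with the deposited values, 55 with median scaling and 19 with quantile normalization, and 6 to 13 without single replicates. Larger rises numbered 8 with deposited values and 8 with quantile normalization, 2 with no filter, and 1 with the repaired normexp correction, 1 without the replicate block and 1 with the 12 arrays only. Leaving out single replicates gave 1 to 3. The median interaction of induced genes was -1.01 with median scaling, -1.44 with deposited values and -1.44 with quantile normalization, -1.64 with repaired normexp, -1.74 with a filter on all 24 arrays, -1.69 within the slide run that holds both lines, and -2.01 to -1.71 without single replicates. That run holds 1 slide of the Tbc1d23-labelled line, so every call within it rests on the spread between CAT slides alone. Interaction calls numbered 476 with median scaling, 362 without the replicate block, 349 with the 12 arrays only (4 residual degrees of freedom), 411 within the run and 498 to 927 without single replicates. Weakened falls numbered 18, 12, 21 and 15 with median scaling, repaired normexp, the 12 arrays only and within the run, and 30 to 53 without single replicates. Kept falls numbered 9 (deposited values, quantile, within the run), 7 (filter on all arrays), 4 (median scaling, repaired normexp), 10 (no replicate block), and 10 to 17 without single replicates. CAT response calls numbered 1454 (12 arrays), 938 (median scaling) and 1137 (no replicate block), and 1475 to 3779 without single replicates. Tbc1d23-labelled response calls numbered 223 (12 arrays), 407 (filter on all arrays), 7337 (median scaling), 3561 (no filter), 254 (no replicate block) and 399 (within the run), and 286 to 940 without single replicates. Line differences at 1 h numbered 3007 with median scaling, against 6899. Genes named by rule gave the same call in 1844 of 2063 gene and setting pairs, lost it in 179 and gained one in 39; Neurl3 reversed to -0.05 when only probes above background on all arrays were used, which selects another probe. The cause of the other changes was not tested. Plain normexp could not be used. Up to 42.1% of signals on an array were surrogates, so changes of dim genes are poorly measured.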

Other observations

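Names of zinc finger proteins recurred among the falls that were weakened in the Tbc1d23-labelled line (31 of these 42 falls were also called there), a group picked out after the named genes had been seen. Names that start with Zfp, Zkscan, Zscan or Zbtb and a number made up 12 of the 42 weakened falls (28.6%), 2 of the 17 kept falls and none of the 21 larger falls, against 324 of all 15032 genes tested (2.16%). Of these 324 genes 131 were called down in CAT cells (40.4%, against 11.3% of all genes) and 31 in Tbc1d23-labelled cells (9.57%, against 3.23%). Their interaction was above 0 in 47 (14.5%, against 2.39%) and below 0 in 9 (2.78%, against 3.45%). Their median response was -0.26 in CAT cells and -0.14 in Tbc1d23-labelled cells. Many of these proteins bind DNA as repressors, and members of a family that lie side by side in the genome resemble each other in sequence, so their probes may not be independent.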
